A study of Mus musculus with 12 samples.

Results

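This comparison set central regulatory T cells (Tregs) that lack CD25 against effector Tregs that keep it. It took the 3 knockout (KO) central Treg libraries (KO cTreg) and the 3 wild-type (WT) effector Treg libraries (WT eTreg), 6 of the 12 libraries of the series, chosen by their sample titles. The question was how far a central Treg without CD25 (the interleukin-2 receptor alpha chain) reaches the normal effector profile: which effector genes it matches or exceeds and which it lacks. The WT central Treg libraries (WT cTreg, 3) gave the starting level of each gene, and the KO eTreg libraries (3) entered only the shared estimate of the spread.

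Per the labels, mice of all groups carry the alleles R26tomato+/+ (a red reporter) and Foxp3eGFPERT2+/+ (a green reporter and a tamoxifen-activated recombinase at the Treg gene Foxp3), and all received tamoxifen at 2 mg/kg by intraperitoneal injection for 5 days, with tissue taken 10 days later. The genotype field gives CD25FL/FL for the WT samples and CD25WT/WT for the KO samples, the reverse of the titles and of the cell type field, and the groups follow the titles. Live CD4+ cells with the green and red reporters were sorted. Central and effector Tregs were then parted by a surface marker gate. KO cells were additionally gated as CD25-low, so in this contrast the subset gate, the deletion and the CD25 gate cannot be told apart. Each library pooled tissue of 2 to 3 mice, which the labels name as pooled spleen and lymph nodes in one place and as spleen in another. The labels give no age, sex or strain. Because WT mice also received tamoxifen and carry both reporters, neither differs between the groups.

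Tregs are CD4+ T cells that restrain immune responses under the transcription factor Foxp3. They make little interleukin-2 themselves and depend on interleukin-2 from other cells, which they bind through CD25 together with the beta and gamma chains, and the receptor signals through JAK kinases to STAT5. Central Tregs recirculate through lymphoid organs with homing receptors such as CCR7. Effector Tregs have met antigen, lose such receptors and express transcription factors such as Blimp-1 and c-Maf, suppressive molecules such as interleukin-10, and receptors for inflamed or barrier tissues.

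The libraries held 14646793 to 17806151 reads in KO cTreg and 14567313 to 19121577 in WT eTreg, and 12461 genes were tested. Levels are CPM (counts scaled to library size) after TMM scaling, which adjusts for library composition. Differences are log2 fold changes, KO cTreg minus WT eTreg, with the SE and n = 3 libraries per group, and genes count as called where edgeR's quasi-likelihood test gave an adjusted p (Benjamini-Hochberg) under 0.05. Replicates are separate pools of mice. Some technical measures moved with the groups. Rn45s, the precursor of ribosomal RNA, took 18.1% to 18.5% of counts in KO cTreg and 4.11% to 4.34% in WT eTreg. Across 11947 genes the log2 fold change correlated with the GC content of the transcript (Pearson r = 0.481, across genes, which are not independent replicates). Its median was -0.51 below the lower quartile of GC content (44.8%) and 0.60 above the upper one (54.4%). The part of these measures in the results was not tested. Where a fit with an offset for transcript length and GC content ended a call, made one, turned a direction or moved a value by over 1.5-fold, its value stands beside the result as "with the offset".

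The sort was checked first on marker genes. Il2ra, the targeted gene of CD25 (chromosome 2, 11642807 to 11693193 in mm10, as all positions here), had levels of 122, 112 and 112 CPM in KO cTreg replicates 1, 2 and 3. The WT eTreg libraries had 464, 561 and 542 CPM, and the WT cTreg libraries 576, 523 and 579.5 CPM. The KO libraries were low in every replicate, as the labels and the CD25-low gate set, with a log2 fold change of -2.18 ± 0.07 (SE; edgeR's adjusted p = 2.07e-12). Foxp3 stood at 233, 217 and 229 CPM in KO cTreg and 256, 230.4 and 246 CPM in WT eTreg, and the T cell genes Cd4 (lowest of the 6 libraries 591 CPM) and Cd3e were high in all. Most markers of other cells were low, while the helper T cytokine genes Tnf and Cd40lg were not. Summed over 12 B and plasma cell genes the level was 7.999 to 10.1 CPM in KO cTreg and 16.3 to 17.4 in WT eTreg, mostly from Cd79b, with 3 and 0 of the 12 at 0 in all libraries of the group. The 16 myeloid and dendritic genes summed to 28.8 to 40.7 and 28.4 to 29.6 CPM, mostly from the broadly expressed Cst3, with 4 of the 16 at 0 in each group. The 10 CD8 T and NK genes summed to 25.7 to 30.6 CPM in KO cTreg and 10.2 to 12.7 in WT eTreg. The highest were Cd8b1 and Eomes, a transcription factor of cytotoxic T cells, at 14.7, 12.6 and 14.04 against 0.968, 3.55 and 1.19 CPM, and 2 of the 10 were at 0 in each group. The 10 conventional helper T cytokine genes summed to 64.7 to 70.8 CPM in KO cTreg and 95.002 to 109 in WT eTreg, mostly Tnf and Cd40lg, with 5 and 1 of the 10 at 0. The 13 erythroid, platelet and stromal genes summed to 4.20 to 14.2 CPM in KO cTreg and 5.26 to 19.1 in WT eTreg. The part of these cells in the results was not tested. In such bulk samples a smaller share of cells expressing a gene and less of its RNA per cell cannot be told apart.

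KO cTreg and WT eTreg differed widely. Of 12461 genes, 8753 (70.2%) passed the test, 4382 (35.2%) higher and 4371 (35.1%) lower in KO cTreg, and 2247 of the calls were at least 2-fold. For 4729 genes (38.0%) the 95% confidence interval of the difference lay inside 1.5-fold in both directions, which is what "matched" means here, and 2457 of those were also called, as small differences. A further 1436 genes (11.5%) were neither called nor bounded that closely and are given below as unresolved. In 4620 genes (37.1%) all KO cTreg libraries lay above all WT eTreg libraries, and in 4614 (37.0%) all lay below. WT eTreg against WT cTreg called 8914 genes (71.5%), 35.7% higher and 35.8% lower in eTreg. KO against WT cTreg called 3421 (27.5%), 14.8% higher and 12.6% lower in KO. The median absolute log2 fold change was 0.47, 0.50 and 0.17 in these contrasts, in this order. These contrasts share libraries, so their values are set side by side and their agreement is not counted.

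To place KO cTreg between the central and the effector state, each gene called and at least 2-fold different between the WT subsets was put on a scale from 0% (the mean log2 CPM of WT cTreg) to 100% (that of WT eTreg). The WT libraries set both ends, so the position is a description with no test. Over the 1464 genes higher in WT eTreg the median position of KO cTreg was 29.6%, and it was 30.9%, 33.7% and 27.4% in replicates 1, 2 and 3. The quartiles were 3.93% and 55.9%. On that scale 316 of the 1464 genes lay at or below the WT cTreg level, 701 (47.9%) nearer to WT cTreg, 364 (24.9%) nearer to WT eTreg, and 83 at or above the WT eTreg level. Over the 1129 genes higher in WT cTreg the median was 13.99%, and it was 27.9% with the offset. On both scales the median lay nearer to WT cTreg than to WT eTreg.

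**Figure D1:**
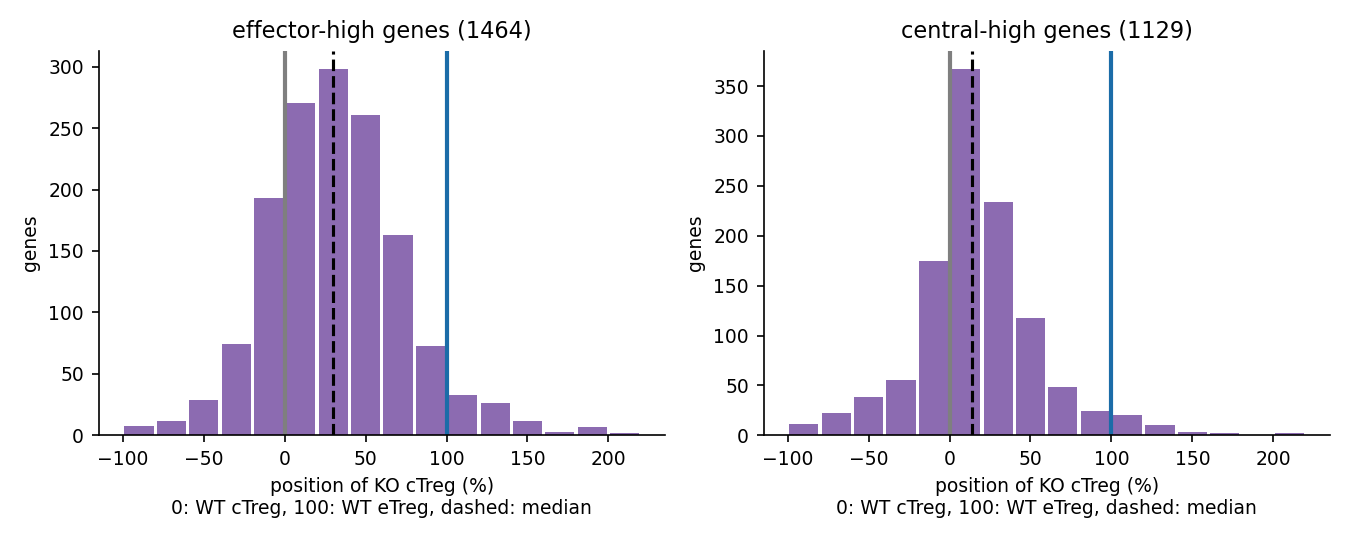
Number of genes (vertical axis) by the position of KO cTreg in percent (horizontal axis, bins of 20 percentage points, with values past either end put in the end bins) for the 1464 genes higher in WT eTreg and the 1129 genes higher in WT cTreg. The grey line marks WT cTreg at 0, the blue line WT eTreg at 100, and the dashed line the median, 29.6% on the left and 13.99% on the right.

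Among the effector genes that KO cTreg exceeded were 2 with well-known roles. Cxcr3, the receptor that leads T cells to interferon-induced chemokines (chromosome X, 101731535 to 101734269), stood at 85.8, 98.3 and 93.3 CPM in KO cTreg, 55.9, 49.9 and 70.2 in WT eTreg and 10.8, 9.58 and 10.1 in WT cTreg. All KO cTreg libraries lay above all WT eTreg libraries, a log2 fold change of 0.66 ± 0.11 (SE; edgeR's adjusted p = 8.99e-05) and 0.27 with the offset. Gzmb, the cytotoxic protease granzyme B (chromosome 14, 56258838 to 56262260), stood at 12.7, 21.5 and 25.6 CPM in KO cTreg, 5.99, 11.2 and 7.46 in WT eTreg and 0.802, 0.721 and 0.614 in WT cTreg. Again the groups did not overlap, and the log2 fold change was 1.27 ± 0.40 (SE; edgeR's adjusted p = 0.0191). KO cTreg replicate 1 was the lowest of its group, and the call of Gzmb ended without KO cTreg replicate 3 or WT eTreg replicate 1 or 3, with an adjusted p of 0.0627, 0.0625 and 0.0577.

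For the other 2 marker genes of this comparison, the WT subsets did not differ by the test. S100a6, a calcium-binding protein of activated and migrating cells (chromosome 3, 90612882 to 90624181), stood at 66.2, 103 and 99.3 CPM in KO cTreg, 19.9, 28.9 and 24.8 in WT eTreg and 13.8, 15.6 and 14.7 in WT cTreg. Its log2 fold change against WT eTreg was 1.86 ± 0.30 (SE; edgeR's adjusted p = 0.000466), while WT eTreg against WT cTreg was not called (0.75, adjusted p = 0.0793). Anxa2, the membrane-binding protein annexin A2 (chromosome 9, 69453620 to 69491795), stood at 99.0, 169 and 152 CPM in KO cTreg, 28.3, 45.1 and 31.5 in WT eTreg and 34.6, 32.8 and 38.6 in WT cTreg. The KO cTreg libraries stood apart from both WT groups, which overlapped, with a log2 fold change of 2.00 ± 0.27 against WT eTreg (SE; edgeR's adjusted p = 0.000151) and -0.01 between the WT subsets (adjusted p = 0.988).

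**Figure D2:**
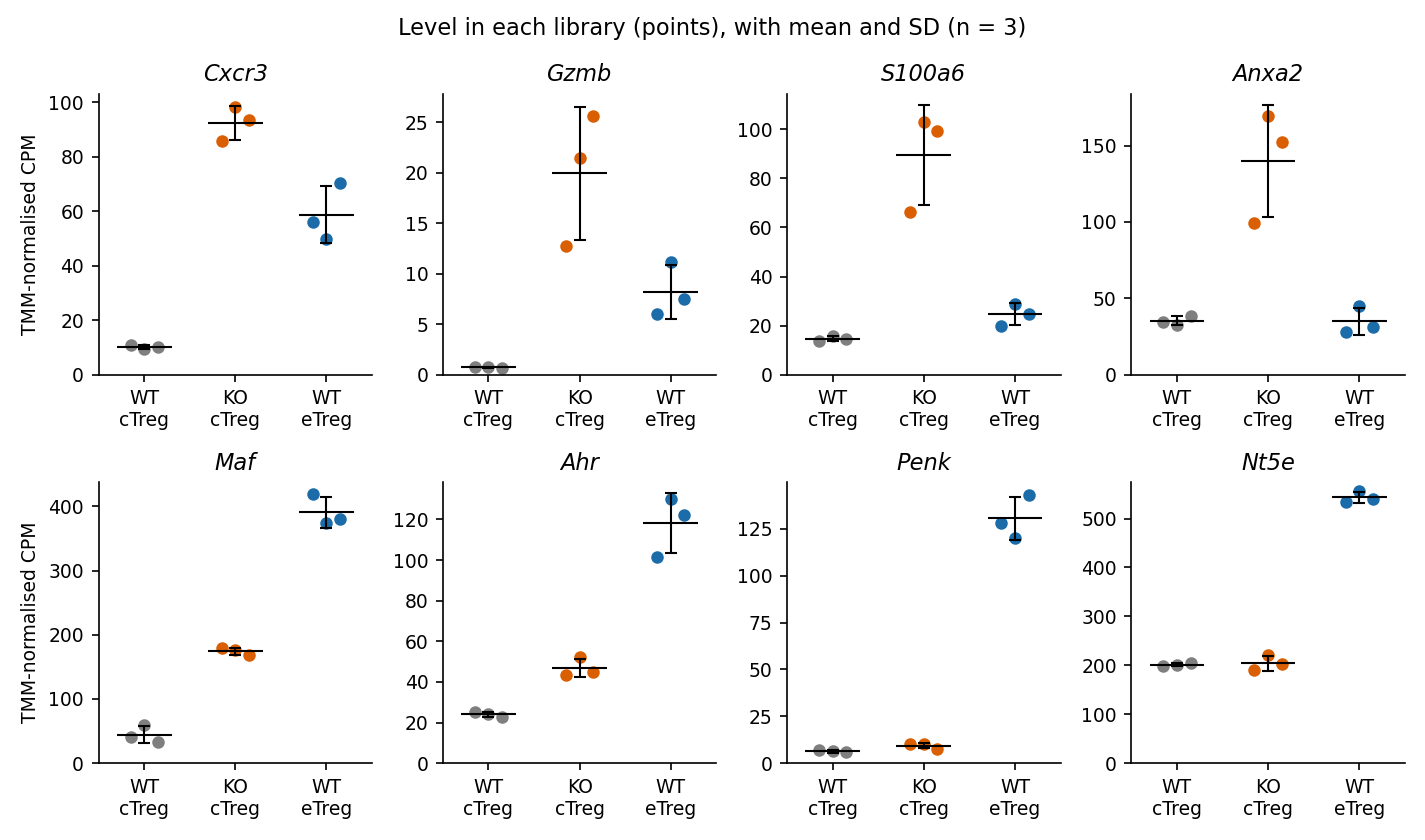
TMM-normalised CPM (vertical axis, from 0) of 8 genes in each library of WT cTreg (grey), KO cTreg (orange) and WT eTreg (blue); bars give the mean and SD of 3 libraries. In the upper row KO cTreg lie above WT eTreg (Gzmb 12.7 to 25.6 against 5.99 to 11.2 CPM), and in the lower row Maf and Ahr lie part of the way up while Penk and Nt5e lie near WT cTreg.

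Promoter sequence is shown for 4 genes, 2 that KO cTreg exceeded (Gzmb and Anxa2) and 2 below WT eTreg, the STAT5 target Cish and the chemokine receptor gene Ccr6. These 4 were chosen after the motif matches were seen, because they hold matches. Windows from RefSeq (GRCm38.p6) of 250 bases before to 50 after each start were searched for the STAT motif GAS (TTCNNNGAA) and the AP-1 motif (TGACTCA or TGAGTCA); both motifs read the same on either strand, and neither overlapped the other here. Each line gives the 250 bases before the start and the first 30 after it, 5′ to 3′ on the gene's strand, with motif matches in capitals.
Gzmb (chr14:56262305-56262584, minus strand): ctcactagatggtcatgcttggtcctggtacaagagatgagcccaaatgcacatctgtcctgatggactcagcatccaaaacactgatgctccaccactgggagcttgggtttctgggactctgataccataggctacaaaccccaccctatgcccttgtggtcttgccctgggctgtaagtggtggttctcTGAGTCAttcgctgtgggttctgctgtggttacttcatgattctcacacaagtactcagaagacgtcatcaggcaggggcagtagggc
Anxa2 (chr9:69453433-69453712, plus strand): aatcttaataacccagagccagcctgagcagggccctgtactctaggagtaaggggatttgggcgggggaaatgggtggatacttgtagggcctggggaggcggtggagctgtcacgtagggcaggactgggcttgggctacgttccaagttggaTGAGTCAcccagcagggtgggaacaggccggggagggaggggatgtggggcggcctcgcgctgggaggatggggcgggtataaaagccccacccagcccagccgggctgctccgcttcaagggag
Cish (chr9:107296409-107296688, plus strand): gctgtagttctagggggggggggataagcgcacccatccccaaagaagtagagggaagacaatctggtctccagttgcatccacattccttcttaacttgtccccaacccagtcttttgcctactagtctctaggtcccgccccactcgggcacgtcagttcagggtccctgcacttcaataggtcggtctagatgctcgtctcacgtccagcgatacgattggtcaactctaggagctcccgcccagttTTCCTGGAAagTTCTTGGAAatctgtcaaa
Ccr6 (chr17:8235793-8236072, plus strand, the first of 2 windows): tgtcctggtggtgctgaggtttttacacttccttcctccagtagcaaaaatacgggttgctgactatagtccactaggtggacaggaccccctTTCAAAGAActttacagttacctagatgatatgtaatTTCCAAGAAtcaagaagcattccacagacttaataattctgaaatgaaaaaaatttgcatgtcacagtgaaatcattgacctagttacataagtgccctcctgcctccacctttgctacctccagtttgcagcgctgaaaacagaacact
The AP-1 match began 58 bases before the start in Gzmb and 95 before it in Anxa2. Cish held 2 GAS matches, at bases 1 and 12 of the transcript, and Ccr6 held 2, beginning 157 and 120 bases before the start. A GAS match was in 6.95% of the 11718 windows of tested genes, in 5.20% of windows of genes called and at least 2-fold higher in KO cTreg and in 7.89% of those at least 2-fold lower. For AP-1 the shares were 3.50%, 3.31% and 4.80%. Gzmb also held a GAS match at base 38 of the transcript, beyond the printed stretch. A match describes the letters only.

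Most transcription factors of effector Tregs were higher than in WT cTreg and lower than in WT eTreg. All 16 in the list were tested. Against WT eTreg 2 were higher and 12 lower in KO cTreg, beside 35.2% and 35.1% of all tested genes. The median log2 fold change was -0.65 against -0.00188 over all genes. With the offset 1 was higher and 11 lower, beside 3866 and 3244 of all 12461 tested genes. Against WT cTreg 15 of the 16 were higher in KO cTreg and 0 lower, beside 14.8% and 12.6% of all tested genes. Maf, which drives interleukin-10 (c-Maf), stood at 179, 176 and 168 CPM in KO cTreg, 419, 375 and 380.0 in WT eTreg and 40.2, 59.0 and 33.2 in WT cTreg, which puts it at 63.5% of the way (log2 fold change against WT eTreg -1.16 ± 0.15, edgeR's adjusted p = 4.49e-05). Ahr, the receptor for environmental aryl compounds that acts in gut Tregs, stood at 43.5, 52.2 and 45.0 against 102, 130.3 and 122 CPM, at 42.0% of the way (-1.33 ± 0.09). Zeb2, a transcriptional repressor, was low, at 1.33, 1.77 and 1.19 against 5.87, 6.73 and 6.73 CPM (-2.16 ± 0.20, and -1.48 with the offset). Prdm1, which encodes Blimp-1, reached 78.8% of the way, at 37.6, 42.0 and 43.7 against 50.1, 58.1 and 66.8 CPM; its call (adjusted p = 0.0012) ended with the offset (-0.26, adjusted p = 0.0678).

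Other factors lay closer to the effector level. Irf4, induced by antigen receptor signals, stood at 118, 131 and 125 CPM in KO cTreg and 139.9, 186 and 158 in WT eTreg (-0.37 ± 0.08), and Gata3, the type 2 factor, at 203, 206 and 208 and 277, 273 and 259 (-0.39 ± 0.06). Both were called lower, yet within 1.5-fold. Batf, the partner of IRF4 on DNA, stood at 56.4, 65.7 and 56.6 against 49.5, 46.6 and 54.0 CPM, higher by a log2 fold change of 0.25 ± 0.08 and within 1.5-fold. It was lower with the offset (-0.37, adjusted p = 0.00047), and its call ended without KO cTreg replicate 2 (adjusted p = 0.0541). Tbx21, the type 1 factor T-bet, which induces Cxcr3, stood at 17.3, 20.05 and 19.97 CPM in KO cTreg, 11.5, 13.4 and 16.5 in WT eTreg and 3.69, 2.59 and 2.15 in WT cTreg. It was called higher in KO cTreg (0.47 ± 0.15, adjusted p = 0.0107), but the direction turned with the offset (-0.24, adjusted p = 0.18) and the call ended without WT eTreg replicate 1 (adjusted p = 0.0519).

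Of 19 secreted and cytotoxic products 17 were tested. Of these 6 were higher and 7 lower in KO cTreg, shares near the 35.2% and 35.1% of all tested genes. With the offset 4 were higher and 9 lower, beside 3866 and 3244 of all 12461 tested genes. The lower share was then above that of all tested genes. Gzmb, Prf1, Gzmk and Gzma, all above WT eTreg, are cytotoxic genes. Prf1, the pore-forming perforin, stood at 10.6, 7.74 and 6.53 CPM in KO cTreg, 1.21, 0.922 and 1.36 in WT eTreg and 6.01, 8.43 and 6.53 in WT cTreg (2.83 ± 0.26, edgeR's adjusted p = 6.16e-08). Prf1 was thus lower in WT eTreg than in WT cTreg, and KO and WT cTreg overlapped. Gzmk and Gzma, 2 further granzymes, were above WT eTreg as well but near the limit of detection, at 0.667, 1.10 and 1.25 against 0.424, 0.415 and 0.17 CPM and 1.04, 1.16 and 1.38 against 0.303, 0.922 and 0.113 CPM. The call of Gzma (adjusted p = 0.029) ended without KO cTreg replicate 2 or 3 or WT eTreg replicate 1 or 3, with adjusted p-values of 0.0526 to 0.114, and its log2 fold change moved from 1.33 to 2.499 without WT eTreg replicate 2.

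Several suppressive products were lower. Il10, the inhibitory cytokine, stood at 3.18, 2.99 and 2.24 CPM in KO cTreg, 9.74, 15.9 and 11.6 in WT eTreg and 0.0802, 0 and 0.307 in WT cTreg. No KO cTreg library reached the lowest WT eTreg library (-2.15 ± 0.26, edgeR's adjusted p = 3.76e-06), though each was above every WT cTreg library (4.38 ± 0.57, adjusted p = 6.41e-05). Ebi3, a subunit of interleukin-35 and interleukin-27, stood at 10.8, 10.7 and 10.5 against 25.2, 21.1 and 23.5 CPM (-1.12 ± 0.16, and -1.78 with the offset). Fgl2, a soluble suppressor, stood at 14.7, 22.4 and 26.3 against 78.7, 91.3 and 95.6 CPM (-2.06 ± 0.16, and -1.46 with the offset). The tissue repair factor Areg (amphiregulin) stood at 1.26, 1.58 and 1.52 against 4.06, 3.96 and 4.30 CPM (-1.49 ± 0.20). Penk, the precursor of enkephalin peptides (chromosome 4, 4133531 to 4138819), stood at 10.0, 10.5 and 7.78 CPM in KO cTreg, 128, 120.1 and 143 in WT eTreg and 7.21, 6.27 and 5.76 in WT cTreg. WT eTreg thus had 13.8 times the level of KO cTreg (-3.79 ± 0.09, adjusted p = 4.03e-14). Tgfb1, the cytokine TGF-beta, was within 1.5-fold, at 162, 173 and 178 against 141, 157 and 143 CPM (0.22 ± 0.06); its call as higher ended with the offset (0.01, adjusted p = 0.926).

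**Figure D3:**
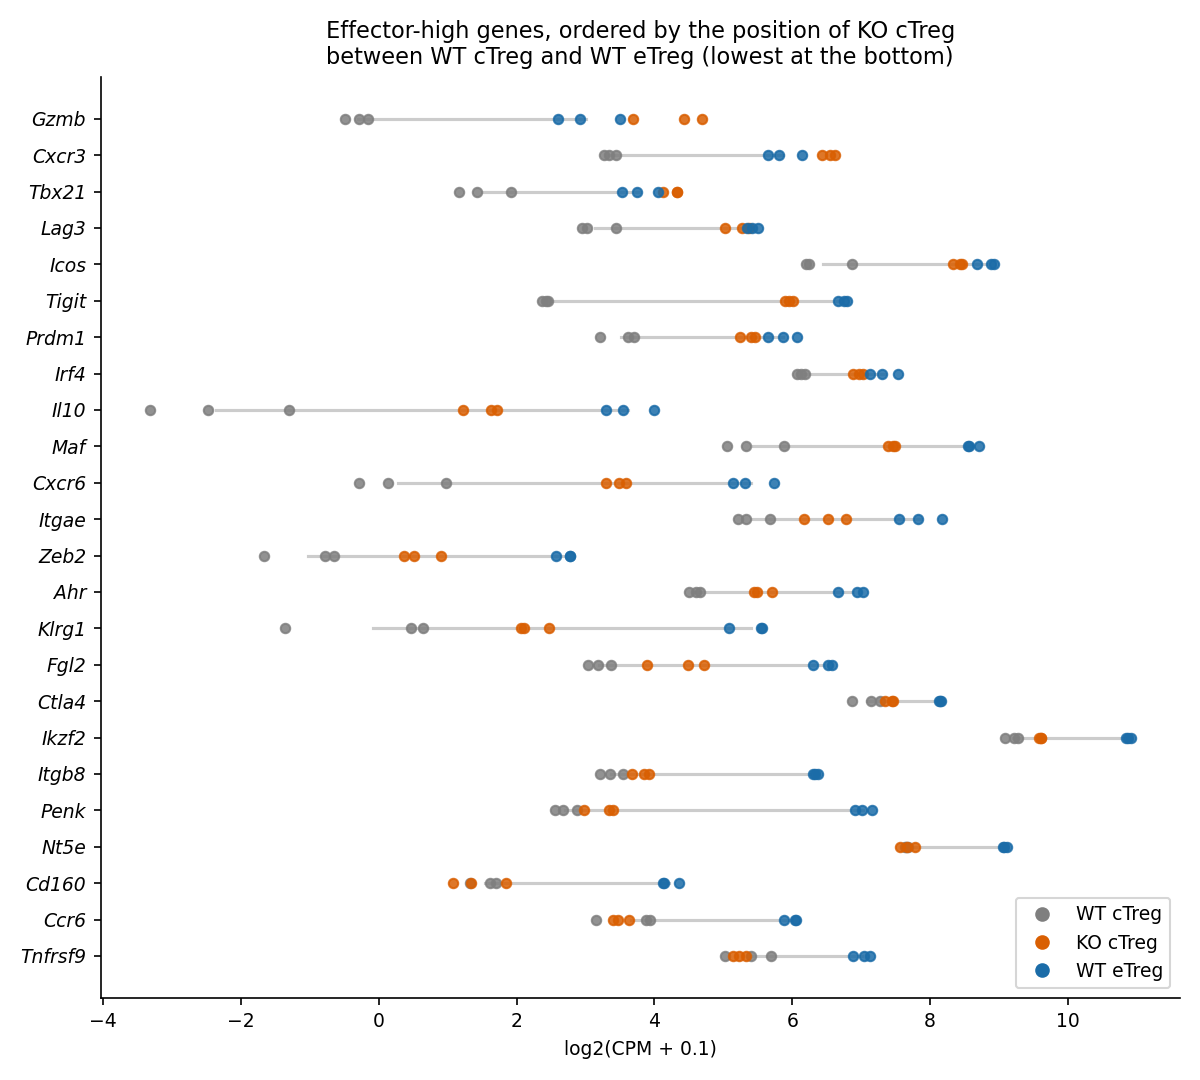
Level in each library as log2(CPM + 0.1) (horizontal axis) of 24 genes higher in WT eTreg than in WT cTreg, ordered by the position of KO cTreg, with a grey line joining the means of the WT groups. The order runs from Tnfrsf9, Ccr6, Cd160 and Nt5e at the WT cTreg level (bottom) to Tbx21, Cxcr3 and Gzmb above WT eTreg (top); levels are to be compared within a gene only.

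Surface receptors of effector Tregs had the lowest median of the 15 lists, a log2 fold change of -1.03. Of 24 in the list 23 were tested, and 0 were higher and 19 lower in KO cTreg by edgeR's test, beside 35.2% and 35.1% of all tested genes. No receptor was higher at an unadjusted p under 0.05 either, and DESeq2's Wald test and limma-voom also called 0. Between the WT subsets 21 of the 23 were higher and 0 lower in eTreg, beside 35.7% and 35.8% of all tested genes. Against WT cTreg 12 were higher and 3 lower in KO cTreg, beside 14.8% and 12.6% of all tested genes. Tigit, an inhibitory receptor, stood at 61.9, 64.6 and 59.3 CPM in KO cTreg, 110.5, 101 and 108 in WT eTreg and 5.29, 5.04 and 5.38 in WT cTreg, 81.9% of the way (-0.78 ± 0.05, edgeR's adjusted p = 1.42e-09). Pdcd1, the gene of PD-1, stood at 70.7, 80.1 and 62.1 against 157, 116 and 139.5 CPM, at 57.9% (-0.95 ± 0.12). Ctla4, a core suppressive receptor of Tregs, stood at 177, 174 and 163 against 279, 284 and 284 CPM, at 31.2% (-0.72 ± 0.08). Il1rl1, the receptor for the alarmin interleukin-33, stood at 29.1, 42.7 and 53.5 against 78.6, 106 and 72.0 CPM (-1.03 ± 0.28, adjusted p = 0.00872), a call that ended with the offset (-0.59, adjusted p = 0.103). The first 3 were called above WT cTreg and below WT eTreg, while Il1rl1 was not called against WT cTreg (0.90, adjusted p = 0.0616).

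Other receptors were not called against WT cTreg. Nt5e, the enzyme CD73 that makes adenosine (chromosome 9, 88327197 to 88372092), stood at 189, 220.3 and 203 CPM in KO cTreg, 534, 556 and 539.8 in WT eTreg and 199, 200.4 and 204 in WT cTreg. KO cTreg overlapped WT cTreg (0.02, adjusted p = 0.829) and lay wholly below WT eTreg (-1.41 ± 0.06, edgeR's adjusted p = 1.43e-11). Tnfrsf9, the costimulatory receptor 4-1BB, stood at 37.2, 40.0 and 35.3 against 118, 132 and 139 CPM, with 51.5, 32.4 and 42.0 in WT cTreg (-1.79 ± 0.13). Cd160, a receptor of cytotoxic lymphocytes, stood at 3.48, 2.01 and 2.44 against 20.4, 17.3 and 17.5 CPM, with 2.40, 2.95 and 3.15 in WT cTreg (-2.81 ± 0.17). Il23r, the receptor of interleukin-23, was detected by only a few reads in KO cTreg, at 0.148, 0.0609 and 0.198 against 4.06, 4.01 and 4.58 CPM (-4.90 ± 0.40). Klrg1, which marks terminally differentiated effector Tregs, stood at 4.07, 4.20 and 5.47 CPM in KO cTreg, 33.8, 46.8 and 46.9 in WT eTreg and 1.28, 0.288 and 1.46 in WT cTreg, with WT eTreg at 9.26 times the KO cTreg level (-3.21 ± 0.33, adjusted p = 1.26e-05). Unlike these, Klrg1 was called above WT cTreg (2.201, adjusted p = 0.0181).

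The matched receptors were Lag3 and Il10ra. Lag3, an inhibitory receptor that binds MHC class II, stood at 38.7, 41.3 and 32.4 CPM in KO cTreg, 42.7, 45.2 and 40.7 in WT eTreg and 10.8, 7.64 and 7.99 in WT cTreg, so the first 2 groups overlapped. Its log2 fold change was -0.19 (95% interval -0.47 to 0.08), but it was called lower with the offset (-0.98, edgeR's adjusted p = 4.72e-05). Il10ra, the interleukin-10 receptor, stood at 91.0, 110.2 and 110.1 against 125, 106 and 134 CPM (-0.23, 95% interval -0.51 to 0.05, and -0.45 with the offset, adjusted p = 0.0135). It was also called without WT eTreg replicate 2 (-0.32, adjusted p = 0.0441) and by DESeq2's Wald test (-0.25, adjusted p = 0.0438). Icos, a costimulatory receptor, was unresolved, at 321, 353 and 344 against 472, 487 and 412 CPM with 75.9, 117 and 73.4 in WT cTreg (-0.43 ± 0.17, adjusted p = 0.0511). All KO cTreg libraries of Icos lay below all WT eTreg libraries. With the offset the difference was gone (0.01, adjusted p = 0.973), while 6 other alternatives called Icos lower, with adjusted p-values of 7.05e-05 to 0.0465.

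Several homing receptors for inflamed and barrier tissue were lower. Of 16 in the list 15 were tested, and 2 were higher and 8 lower in KO cTreg, beside 35.2% and 35.1% of all tested genes. With the offset 3 were higher and 6 lower, beside 3866 and 3244 of all 12461 tested genes. Beside Cxcr3 the one called higher was Ccr10, a skin homing receptor, at a low 3.85, 5.91 and 6.72 against 1.09, 1.98 and 0.622 CPM (2.12 ± 0.42, and 1.46 with the offset). Ccr6, which leads cells toward CCL20 at mucosal surfaces and whose promoter is printed above, stood at 10.96, 12.3 and 10.5 CPM in KO cTreg, 65.5, 66.2 and 58.9 in WT eTreg and 14.7, 15.3 and 8.76 in WT cTreg. KO and WT cTreg overlapped (-0.20 against WT cTreg, adjusted p = 0.402), and WT eTreg had 5.64 times the KO cTreg level (-2.50 ± 0.14, edgeR's adjusted p = 2.64e-09). Cxcr6, a receptor of tissue-resident T cells, was 62.0% of the way, at 9.78, 11.9 and 11.1 against 35.2, 39.6 and 53.4 CPM (-1.96 ± 0.24). Ccr1 was close to 0 in KO cTreg, at 0.222, 0.0609 and 0.132 against 1.21, 1.43 and 1.53 CPM (-3.31 ± 0.48, and -2.67 with the offset). Gpr183, an oxysterol receptor that guides cells within lymphoid tissue, was matched, at 117, 108 and 102 against 103, 75.7 and 102 CPM (0.22, 95% interval -0.01 to 0.45, and called with the offset at 0.52). It was also called without WT eTreg replicate 1 or 3 (0.30 and 0.29, adjusted p = 0.034 and 0.0464) and with the replicate block (0.23, adjusted p = 0.0218).

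Of 19 adhesion molecules 18 were tested, and 6 were higher and 8 lower in KO cTreg, beside 35.2% and 35.1% of all tested genes. Itgb8, the integrin chain that activates TGF-beta on Tregs (chromosome 12, 119158022 to 119238802), stood at 15.04, 14.4 and 12.7 CPM in KO cTreg, 80.6, 78.7 and 82.8 in WT eTreg and 9.14, 10.2 and 11.6 in WT cTreg (-2.52 ± 0.09, edgeR's adjusted p = 2.07e-12, and -1.85 with the offset). Itgae, the CD103 chain that binds epithelium, reached 44.4% of the way, at 71.9, 91.9 and 109 against 227, 289 and 187 CPM (-1.36 ± 0.21). Itga1, a collagen receptor of resident cells, stood at 0.593, 0.914 and 1.05 against 3.99, 3.55 and 7.86 CPM (-2.56 ± 0.37), and the adhesion molecule Epcam at 0.741, 1.46 and 1.58 against 11.4, 11.8 and 17.1 CPM (-3.39 ± 0.23). Others stood above WT eTreg. Itgb7, which pairs with the alpha 4 chain for gut homing, stood at 728, 867 and 860.2 against 318, 344 and 329 CPM (1.31 ± 0.08, and 0.71 with the offset), and Selplg, the selectin ligand PSGL-1, at 365, 424 and 462 against 153, 168 and 159.6 CPM (1.38 ± 0.10). WT cTreg overlapped KO cTreg in both, at 811, 745 and 842 and 475, 434 and 460.4 CPM. Itgal, the LFA-1 chain, was matched, at 1145, 1144 and 1131 against 1276, 1177 and 1154 CPM (-0.08, 95% interval -0.19 to 0.04, and called with the offset at -0.28).

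Most S100, annexin, galectin and cytoskeletal genes, which serve migration and membrane repair, were higher in KO cTreg than in WT eTreg. Of 26 genes, all tested, 17 were higher and 2 lower, beside 35.2% and 35.1% of all tested genes. With the offset 16 were higher and 3 lower, beside 3866 and 3244 of all 12461 tested genes. The median log2 fold change was 0.82, or 0.49 with the offset. Between the WT subsets the same list had 9 genes higher and 12 lower in eTreg, beside 35.7% and 35.8% of all tested genes. Lgals3, the sugar-binding galectin-3, stood at 9.63, 16.7 and 17.9 CPM in KO cTreg, 1.03, 4.56 and 2.54 in WT eTreg and 1.60, 1.80 and 2.46 in WT cTreg (2.40 ± 0.52, edgeR's adjusted p = 0.00243). Without WT eTreg replicate 2, the highest of its group, the log2 fold change of Lgals3 was 3.03. Lgals1, galectin-1, stood at 120.4, 215 and 208, 52.0, 83.9 and 57.2 and 71.7, 68.3 and 71.0 CPM in the same order (1.49 ± 0.32, adjusted p = 0.00286). The small LIM protein gene Crip2 was low, at 2.00, 2.92 and 2.44 against 0.363, 0.784 and 0.396 CPM (2.202 ± 0.35, and 1.29 with the offset). S100a4, at 47.7, 81.9 and 78.6 against 34.7, 43.4 and 43.1 CPM, was unresolved (0.78 ± 0.32, adjusted p = 0.0538). Without KO cTreg replicate 1, the lowest of its group, it was called higher (0.99, adjusted p = 0.0233). DESeq2's Wald test, limma-voom and edgeR on the 6 libraries alone also called S100a4 higher (adjusted p = 0.0304, 0.0165 and 0.0388). The 2 lower genes were Ahnak, a very large scaffold protein, at 1636, 1924 and 2098 against 2965, 3148 and 2902 CPM (-0.67 ± 0.11), and Anxa4 at 5.70, 6.89 and 6.46 against 9.87, 10.6 and 11.03 CPM (-0.72 ± 0.13). Both were above WT cTreg, at 804, 1071 and 932 and 3.37, 3.89 and 3.76 CPM. Anxa5 was matched, at 57.7, 65.0 and 63.3 against 52.8, 63.2 and 55.1 CPM (0.12, 95% interval -0.04 to 0.27, and -0.05 with the offset), though called without WT eTreg replicate 2 (0.20, adjusted p = 0.0243).

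Genes of follicular regulatory and helper T cells, which enter B cell follicles, lay below WT eTreg as a list. Of 18 genes 17 were tested, and 1 was higher and 12 lower in KO cTreg, beside 35.2% and 35.1% of all tested genes. The median log2 fold change was -0.59. With the offset 3 were higher and 10 lower, beside 3866 and 3244 of all 12461 tested genes. Of the 17, 14 were higher than in WT cTreg, beside 14.8% of all tested genes. Cxcr5, the follicle homing receptor, stood at 50.5, 45.9 and 45.2 CPM in KO cTreg, 112, 88.4 and 74.0 in WT eTreg and 25.6, 24.9 and 10.98 in WT cTreg, at 58.1% of the way (-0.95 ± 0.29, edgeR's adjusted p = 0.0152). Its call ended without WT eTreg replicate 1, the highest of its group (adjusted p = 0.0527). Bcl6, the follicular lineage factor, stood at 60.2, 47.2 and 50.2 against 96.1, 78.0 and 63.2 CPM (-0.59 ± 0.17). Il21, the helper cytokine, stood at 4.67, 4.33 and 3.03 against 10.3, 11.1 and 5.82 CPM (-1.18 ± 0.27), a call that ended with the offset (-0.54, adjusted p = 0.122). Rgs16, which dampens chemokine receptor signals, overlapped WT cTreg, which had 12.7, 6.41 and 11.7 CPM, with 8.07, 10.3 and 10.3 against 38.3, 54.1 and 43.8 CPM (-2.24 ± 0.21), and Sostdc1, a secreted antagonist of BMP and Wnt signals, stood at 2.96, 2.13 and 1.71 against 19, 8.85 and 11.9 CPM (-2.54 ± 0.42). The 1 higher gene was Il6ra, the interleukin-6 receptor, at 263, 266 and 290.3 against 133, 154 and 124 CPM (0.995 ± 0.08). Slamf6 and S1pr2 were matched, at -0.09 (95% interval -0.24 to 0.05, and called higher with the offset at 0.38) and -0.06 (95% interval -0.26 to 0.14, and 0.02 without WT eTreg replicate 1).

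Genes of resting and central T cells were mostly higher than in WT eTreg. Of 24, all tested, 20 were higher and 2 lower in KO cTreg than in WT eTreg, beside 35.2% and 35.1% of all tested genes. The median log2 fold change was 1.36. Against WT cTreg 1 was higher and 11 lower, beside 14.8% and 12.6% of all tested genes. The list is not independent of the subset gate. Klf2, which drives the exit receptor S1pr1, stood at 383, 459.8 and 474 CPM in KO cTreg, 68.5, 109 and 97.0 in WT eTreg and 471, 428 and 519 in WT cTreg (2.26 ± 0.19, edgeR's adjusted p = 4.49e-06, and 1.32 with the offset). KO and WT cTreg overlapped. Ccr7, the lymph node homing receptor, stood at 219.5, 198 and 221, 73.0, 85.9 and 72.7 and 341, 311 and 319 CPM in the same order, below WT cTreg but above WT eTreg (1.46 ± 0.07). Dapl1, a marker of naive-like T cells, stood at 7.63, 5.48 and 8.57 against 0.242, 0.599 and 0.452 CPM (3.998 ± 0.27). Ly6c1 stood at 26.5, 29.3 and 24.6 against 1.63, 2.54 and 2.88 CPM (3.49 ± 0.18), less than the 67.6, 55.0 and 57.8 CPM of WT cTreg, and has a near-identical neighbour with which reads could be shared. Igfbp4, an insulin-like growth factor binding protein of naive T cells, stood at 147, 116 and 156 CPM in KO cTreg, 8.72, 28.7 and 15.9 in WT eTreg and 659, 744 and 704 in WT cTreg (2.94 ± 0.34). WT eTreg replicate 2 was the highest of its group in Igfbp4.

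The 2 genes of this list below WT eTreg were Ccr9, a gut homing receptor, and Il7r, the interleukin-7 receptor. Both were higher in WT eTreg than in WT cTreg (0.78 and 1.69, edgeR's adjusted p = 0.0048 and 0.00101). Ccr9 stood at 5.70, 5.48 and 7.19 CPM in KO cTreg, 23.7, 28.8 and 16.0 in WT eTreg and 16.6, 10.3 and 13.4 in WT cTreg. It was below both WT groups (-1.90 ± 0.22 against WT eTreg and -1.13 against WT cTreg, adjusted p = 0.00355). Il7r stood at 179.9, 235 and 215 CPM in KO cTreg, 410.3, 287 and 514 in WT eTreg and 104, 172 and 100.3 in WT cTreg (-0.94 ± 0.30, edgeR's adjusted p = 0.0196). Its call ended with the offset (-0.34, adjusted p = 0.339) and without KO cTreg replicate 1 or WT eTreg replicate 3 (adjusted p = 0.0661 and 0.0713).

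Treg identity genes other than Foxp3 were mostly lower than in WT eTreg. Of 14, all tested, 3 were higher and 9 lower, beside 35.2% and 35.1% of all tested genes, with a median log2 fold change of -0.62. Foxp3 itself (chromosome X, 7573644 to 7595245) was matched at -0.11 (95% interval -0.24 to 0.02). It was called lower with the offset (-0.46, edgeR's adjusted p = 6.12e-06), and WT cTreg had more than either group, at 386, 385 and 407 CPM. Ikzf2, the factor Helios, stood at 779.8, 782 and 766 CPM in KO cTreg, 1871, 1828 and 1924 in WT eTreg and 545, 619.9 and 598 in WT cTreg (-1.27 ± 0.05, adjusted p = 9.91e-12, and -0.56 with the offset). Ikzf4, the factor Eos, stood at 103, 97.5 and 99.5, 183, 194 and 179 and 186, 171 and 191 CPM in the same order, below both WT groups, which overlapped (-0.89 ± 0.08). Lrrc32, the surface anchor of latent TGF-beta, stood at 118, 88.7 and 104, 129, 153 and 150 and 306, 273 and 324 CPM (-0.47 ± 0.10, and -1.06 with the offset). Plagl1, a zinc finger factor, stood at 6.67, 4.69 and 4.75 against 19.1, 27.2 and 22.2 CPM (-2.10 ± 0.15). The T cell genes of the list differed little: Cd3e was matched (0.01, -0.02 to 0.04 without single libraries, and 0.32 with the offset, adjusted p = 2.17e-05), Cd4 (0.34) was called higher within 1.5-fold, and Cd5 was higher at 0.47, a difference that was gone with the offset (-0.02).

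In the interleukin-2 pathway the receptor partners of CD25 were within 1.5-fold of WT eTreg. The STAT5 targets named here went both ways against WT eTreg, and none was called above WT cTreg. The list of 20, all tested, had 10 higher and 5 lower genes, beside 35.2% and 35.1% of all tested genes. With the offset 6 were higher and 5 lower, beside 3866 and 3244 of all 12461 tested genes. Without the offset the median log2 fold change was 0.10, and the lower genes included the deleted Il2ra itself. Against WT cTreg 3 of the 20 were higher and 9 lower, beside 14.8% and 12.6% of all tested genes. Il2rb, the beta chain shared with interleukin-15, stood at 477, 531 and 510.4 CPM in KO cTreg and 480.1, 494 and 511 in WT eTreg (0.03, 95% interval -0.08 to 0.14; -0.24 with the offset, edgeR's adjusted p = 0.00101). The common gamma chain gene Il2rg (0.12, 95% interval 0.02 to 0.21) and the kinase gene Jak1 (-0.05, 95% interval -0.15 to 0.04, and 0.10 with the offset) were also within 1.5-fold. The small difference of Il2rg was called (adjusted p = 0.0303), but not without KO cTreg replicate 2 or 3 or WT eTreg replicate 1 or 2 (0.0575 to 0.105), with DESeq2 size factors (0.0621) or with the offset (0.07, 0.135). Among targets of STAT5, Cish, a feedback inhibitor whose promoter holds the GAS pair printed above, stood at 69.6, 61.7 and 62.2 CPM in KO cTreg, 121, 107 and 129 in WT eTreg and 172, 148 and 169.6 in WT cTreg (-0.89 ± 0.11, adjusted p = 1.58e-05). Socs2, another feedback inhibitor, which was counted in the identity list, stood at 11.9, 11.5 and 12.1, 46.1, 60.2 and 52.8 and 38.6, 42.9 and 36.3 CPM in the same order (-2.16 ± 0.10). The cytokine gene Lta stood at 16.9, 15.7 and 17.2, 35.4, 42.2 and 39.0 and 50.8, 41.1 and 41.1 CPM (-1.23 ± 0.09). All 3 lay below both WT groups in every KO cTreg library. Socs3 and Socs1 went the other way against WT eTreg, at 277, 235 and 241 against 79.6, 67.5 and 64.0 CPM (1.84 ± 0.15, and 1.18 with the offset) and 64.0, 54.6 and 51.4 against 27.4, 19.2 and 24.0 CPM (1.28 ± 0.12, and 0.63 with the offset). WT cTreg had 318, 281 and 243 and 89.8, 80.4 and 75.7 CPM of these. Against WT cTreg, Socs3 was not called (-0.16, edgeR's adjusted p = 0.437) and Socs1 was called lower (-0.53, adjusted p = 0.00242).

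Of 26 early response genes of the antigen receptor 24 were tested. Of these 9 were higher and 6 lower, beside 35.2% and 35.1% of all tested genes. With the offset 6 were higher and 8 lower, beside 3866 and 3244 of all 12461 tested genes. The median log2 fold change was 0.16, or -0.07 with the offset. The lower genes included the nuclear receptor genes Nr4a3 and Nr4a2 and the zinc finger factor gene Egr2. Nr4a3 stood at 30.9, 21.0 and 32.2 CPM in KO cTreg, 67.2, 91.7 and 73.7 in WT eTreg and 28.8, 22.7 and 32.4 in WT cTreg (-1.48 ± 0.20, edgeR's adjusted p = 0.000103). Nr4a2 stood at 1.56, 1.71 and 2.31 against 6.42, 7.61 and 10.1 CPM (-2.11 ± 0.26) and Egr2 at 49.0, 44.8 and 50.5 against 94.96, 108 and 92.5 CPM (-1.03 ± 0.10). The higher genes included the AP-1 subunit genes Jun, at 107, 50.3 and 116 against 19.1, 34.8 and 9.90 CPM (2.07 ± 0.60), and Jund, at 441, 365 and 455 against 136, 152 and 132 CPM (1.58 ± 0.11), a call that ended with the offset for Jund (0.17, adjusted p = 0.219). WT cTreg overlapped KO cTreg in both, at 89.0, 64.1 and 105 and 436, 369.5 and 405 CPM.

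Most proliferation genes were higher in KO cTreg. Of 32 cell cycle genes, all tested, 25 were higher and 0 lower than in WT eTreg by edgeR's test, beside 35.2% and 35.1% of all tested genes. The median log2 fold change of the 32 was 1.15. None was lower at an unadjusted p under 0.05, and DESeq2's Wald test and limma-voom called 0 lower. Against WT cTreg 7 were higher and 0 lower, beside 14.8% and 12.6% of all tested genes. Birc5, the mitotic regulator survivin, stood at 10.1, 22.7 and 18.5 CPM in KO cTreg, 2.00, 5.21 and 2.66 in WT eTreg and 10.9, 7.42 and 6.61 in WT cTreg (2.35 ± 0.51, edgeR's adjusted p = 0.00243). Aurkb, the kinase aurora B, stood at 5.85, 18.8 and 12.1, 2.42, 3.00 and 2.38 and 8.18, 4.90 and 5.15 CPM in the same order (2.24 ± 0.50). KO cTreg replicate 1 was the lowest of its group in both. Mki67, the proliferation marker Ki-67, was unresolved, at 225, 396 and 338 against 120.0, 235 and 148 CPM (0.93 ± 0.37, adjusted p = 0.052), and WT eTreg replicate 2 lay above KO cTreg replicate 1. It was called with the offset (1.25, adjusted p = 0.0222). DESeq2's Wald test, limma-voom and edgeR with library sizes without Rn45s also called Mki67 higher (adjusted p = 0.02, 0.0088 and 0.0494). Without WT eTreg replicate 2 it was called higher (1.25, adjusted p = 0.0239), as it was without KO cTreg replicate 1 (1.13, adjusted p = 0.0349). Of the helicase subunits that license replication, Mcm4 (0.23) and Mcm6 (-0.12, and 0.05 with the offset) were within 1.5-fold. Without KO cTreg replicate 2, Mcm6 was called lower (-0.23, adjusted p = 0.0109). Leaving out single libraries gave 19 to 29 higher genes.

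Histone genes made up 10 of the 12 largest rises among genes whose log2 CPM averaged 3 or more. As a group defined after the data were seen, 60 of 65 tested replication-dependent histone genes (of 68) were higher and 0 lower by edgeR's test, beside 35.2% and 35.1% of all tested genes. DESeq2's Wald test, limma-voom and an unadjusted p under 0.05 also gave 0 lower. The median of these histone genes was 2.68, or 2.195 with the offset. With the offset 59 were higher and 2 lower, beside 3866 and 3244 of all 12461 tested genes. Their messages lack poly(A) tails, are kept in total RNA libraries and peak in S phase. The largest rise above that level was in Hist1h3c, at 28.4, 73.4 and 55.6 CPM in KO cTreg, 2.30, 3.27 and 1.98 in WT eTreg and 33.4, 19.6 and 19.4 in WT cTreg (4.36 ± 0.53, edgeR's adjusted p = 7.61e-05, and 3.75 with the offset). Hist1h2ag stood at 22.6, 51.7 and 36.1 against 1.63, 2.30 and 2.09 CPM (4.18 ± 0.45, and 2.91 with the offset). Of these genes, 54 of the 65 were lower in WT eTreg than in WT cTreg, and 30 were higher in KO than in WT cTreg, beside 35.8% and 14.8% of all tested genes. Histone copies are near-identical, so reads of single genes are uncertain. H2afx, a histone gene outside these clusters, stood at 50.3, 91.6 and 72.6 against 11.3, 13.3 and 11.6 CPM (2.57 ± 0.26, and 1.54 with the offset).

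Most interferon response genes were higher as well. Of 30 interferon response genes 22 were higher and 3 lower in KO cTreg, beside 35.2% and 35.1% of all tested genes. With the offset 27 were higher and 0 lower, beside 3866 and 3244 of all 12461 tested genes. The median was 0.65 without the offset. Between the WT subsets 6 of the 30 were higher and 17 lower in eTreg, beside 35.7% and 35.8% of all tested genes. Against WT cTreg 19 were higher and 1 lower in KO cTreg, beside 14.8% and 12.6% of all tested genes. The antiviral synthetase gene Oas2 stood at 25.8, 24.2 and 23.7 CPM in KO cTreg, 3.27, 5.21 and 3.17 in WT eTreg and 23.8, 24.7 and 28.0 in WT cTreg, with KO and WT cTreg overlapping (2.64 ± 0.19, edgeR's adjusted p = 9.05e-09). Oas3, at 111, 141 and 114, 35.8, 40.4 and 30.8 and 78.2, 63.8 and 62.2 CPM in the same order, was above both WT groups (1.77 ± 0.14). Of the RNA sensors, Ifih1 was lower (-0.49, and -0.01 with the offset, adjusted p = 0.924) and Ddx58 was matched (0.12, and called with the offset at 0.34). Ddx58 was also called without KO cTreg replicate 3 or WT eTreg replicate 3 (0.18 and 0.15, adjusted p = 0.0171 and 0.0456).

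Of 18 glycolysis and glucose uptake genes 14 were higher and 1 lower in KO cTreg, beside 35.2% and 35.1% of all tested genes. The median log2 fold change was 0.62, or 0.27 with the offset. Eno1, an enolase, stood at 323, 369 and 371 against 139.8, 165 and 153 CPM (1.21 ± 0.08, and 0.62 with the offset), and Ldha, the lactate dehydrogenase of activated cells, at 389, 449 and 443 against 209.9, 250.3 and 218 CPM (0.92 ± 0.09, edgeR's adjusted p = 3.04e-07). WT cTreg had 418, 369 and 412 and 356, 357 and 349.8 CPM. Pfkp, a phosphofructokinase, was within 1.5-fold (0.42). The 1 lower gene, the hexokinase Hk2 (-0.54, adjusted p = 0.0113), was not called without KO cTreg replicate 3 or WT eTreg replicate 2 (0.0558 and 0.0842).

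Of 20 survival and death genes 5 were higher and 11 lower, beside 35.2% and 35.1% of all tested genes. With the offset 4 were higher and 5 lower, beside 3866 and 3244 of all 12461 tested genes. The median moved from -0.27 to 0.01 with it. The survival genes Bcl2a1d and Bcl2a1b stood at 10.1, 11.5 and 9.69 against 26.9, 29.3 and 26.7 CPM (-1.41 ± 0.12) and 24.6, 25.5 and 23.5 against 58.9, 55.2 and 56.7 CPM (-1.21 ± 0.07, edgeR's adjusted p = 5.32e-10). They are near-identical copies, so the split between them is uncertain. The pro-apoptotic genes Bbc3 (1.47) and Bax (1.13) were higher and the caspase inhibitor Xiap lower (-0.82), but with the offset all 3 calls ended, at 0.24, -0.02 and 0.04.

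Outside the lists, several of the 12 largest falls were in genes higher in WT eTreg than in WT cTreg and not called between KO and WT cTreg. Lilrb4a, an inhibitory immunoglobulin-like receptor, stood at 2.67, 2.44 and 1.25 CPM in KO cTreg, 32.6, 29.5 and 55.2 in WT eTreg and 1.60, 1.87 and 0.614 in WT cTreg (-4.20 ± 0.38, edgeR's adjusted p = 6.93e-06); it has a near-identical neighbour. The signalling regulator Rgs9 stood at 3.11, 6.28 and 4.68 against 61.9, 63.2 and 58.7 CPM (-3.68 ± 0.19) and the calcium channel gene Ryr2 at 9.11, 5.12 and 7.38 against 77.9, 92.5 and 86.9 CPM (-3.59 ± 0.23), each with KO and WT cTreg overlapping. Dscam, an adhesion molecule known from neurons, had a log2 fold change of -3.06 ± 0.36, Naip5, a flagellin sensor with close copies, -2.99 ± 0.37, and Bicd1, a dynein adaptor, -3.04 ± 0.33 (-2.21 with the offset).

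Asb2, a ubiquitin ligase subunit, was also called above WT cTreg, at 4.74, 4.27 and 4.68 CPM in KO cTreg, 50.3, 35.7 and 50.3 in WT eTreg and 0.641, 1.15 and 0.23 in WT cTreg (-3.31 ± 0.19, and -4.02 with the offset). Dnah7a, a dynein heavy chain gene, and Fsd1l were below both WT groups. Dnah7a stood at 2.89, 5.36 and 3.89, 60.2, 70.2 and 66.6 and 13.5, 17.2 and 11.9 CPM (-3.998 ± 0.21), and Fsd1l at 2.67, 2.92 and 2.90, 27.9, 30.8 and 29.7 and 17.7, 24.1 and 23.5 CPM (-3.37 ± 0.18, and -2.50 with the offset). Among the largest rises the 2 that are not histone genes were Adcy6 and Ly6c1. Adcy6, an adenylate cyclase that makes cyclic AMP, stood at 63.0, 41.3 and 53.8 CPM in KO cTreg, 3.87, 4.56 and 3.28 in WT eTreg and 54.1, 49.7 and 68.5 in WT cTreg (3.74 ± 0.24, edgeR's adjusted p = 2.17e-07), with KO and WT cTreg overlapping.

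**Figure D4:**
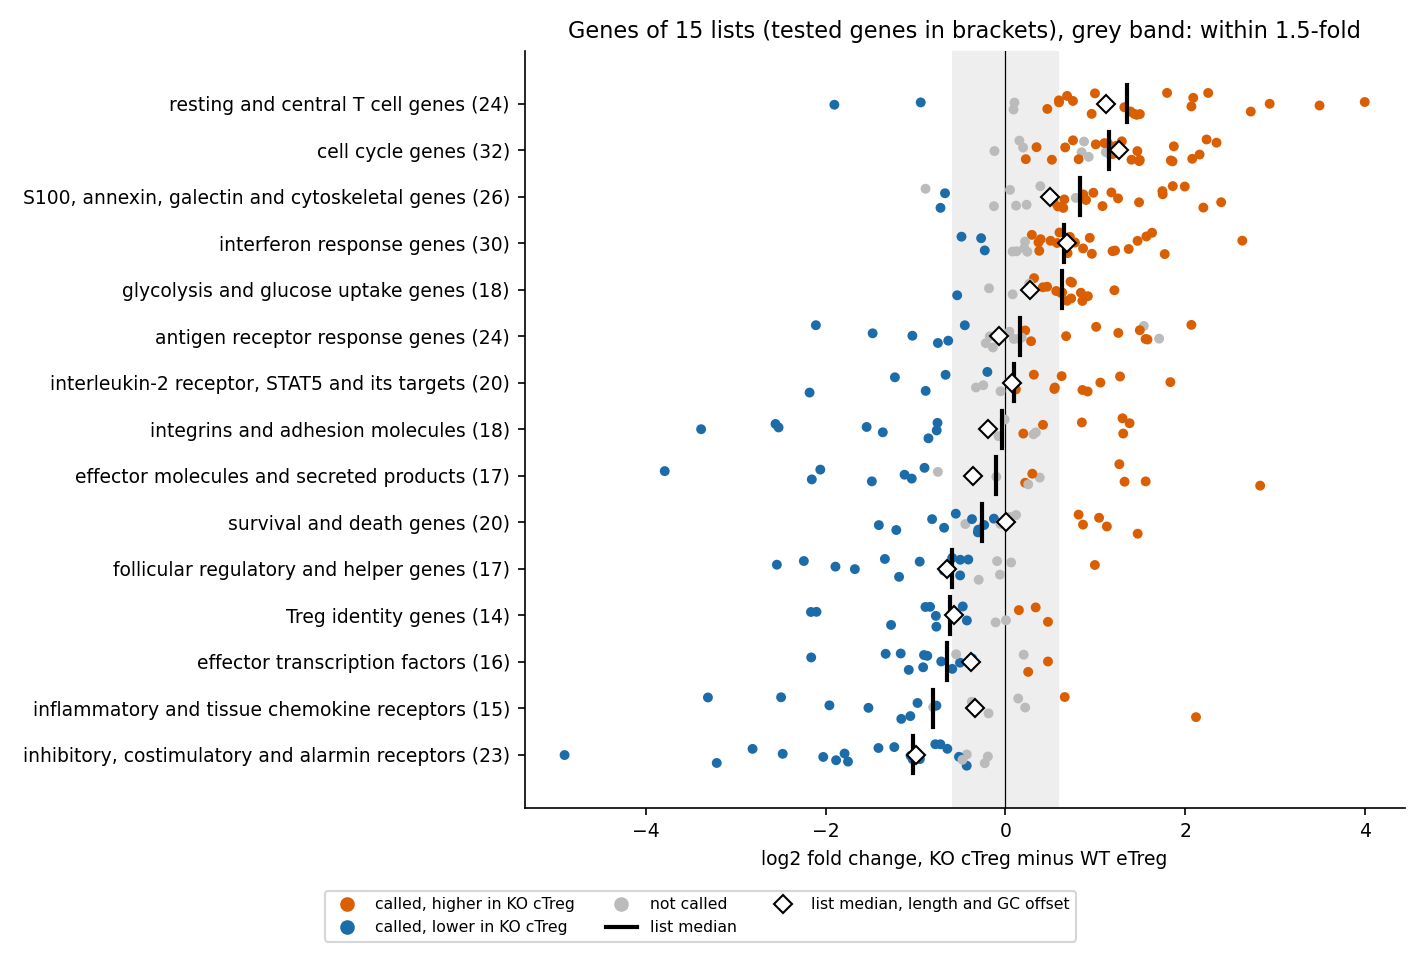
Log2 fold change, KO cTreg minus WT eTreg (horizontal axis), of each tested gene of 15 lists, with called higher genes in orange, called lower genes in blue and the rest in grey; the grey band is 1.5-fold either way, black bars are list medians and diamonds the medians with the length and GC offset. Receptors lie lowest (median -1.03) and central T cell and cell cycle genes highest (1.36 and 1.15); the antigen receptor and survival medians (0.16 and -0.27) lie on the other side of 0 with the offset (-0.07 and 0.01).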

How the data were processed

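The deposited table holds read counts per gene symbol, whole numbers not normalised by the authors, with 1 column per library. RNA came from Qiagen RNeasy columns and was depleted of ribosomal RNA (KAPA RNA HyperPrep with RiboErase), per the labels' protocols. HISAT2 2.2.1, mm10 and Cell Ranger are named in the submitters' processing notes with no role. How reads were counted (tool, annotation, strand) is not given in the sources used here. Overlapping and near-identical genes are therefore uncertain. The 25 symbols a spreadsheet turned into month-like names are not named.

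The main test was edgeR 4.0.16 under R 4.3.3 (filterByExpr, TMM, robust quasi-likelihood F-test, two-sided) over all 12 libraries, which share 1 estimate of the spread (biological coefficient of variation 0.0768), with Benjamini-Hochberg adjustment over 12461 genes in each of 3 contrasts. Each SE was taken as the log2 fold change over the root of its F statistic. Positions on the log2 CPM scale used a prior count of 2. Coordinates, transcript length and GC content are from GENCODE vM21 (mm10), found for 11947 tested genes (95.9%). The offset was fitted per library with splines (4 degrees of freedom) on length and GC content. Alternatives were DESeq2 1.42.0 (size factors or Wald test), limma-voom (limma 3.58.1), other filters, the replicate block, library sizes without Rn45s, the offset, the 6 libraries alone and each library left out. The fit was tested on simulated data for this contrast (12306 genes at the real depths, each with the same mean in every group). Only 100 genes with a 1.5-fold and 100 with a 2-fold change, all above a count floor, differed, and no shift with GC content was added. The fit found 82 and 91 of these, and 4.95% of its calls were false. The real contrast called 70.2% of genes and moved with GC content, so these rates need not hold for it.

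The comparison, the 15 gene lists, the 5 lists of other cells and the rule for named genes were chosen with earlier results of these data known. The rule takes the 12 largest rises and falls among called genes whose groups do not overlap, whose log2 CPM averages 3 or more over the 6 libraries. From each list it takes the 2 largest called rises, the 3 largest called falls and the 2 narrowest intervals inside 1.5-fold, leaving out predicted genes, antigen receptor segments, ribosomal genes, pseudogenes and month-like symbols, and it adds Cxcr3, Gzmb, S100a6, Anxa2, Il2ra, Foxp3 and Cd4. For length, the text gives part of what the rule names, and some genes it names are not reported here. Named outside it, after their values were seen, were Prdm1, Irf4, Gzma, Ebi3, Areg, Icos, Tigit, Pdcd1, Ctla4, Il1rl1, Nt5e, Tnfrsf9, Itgae, Lgals1, S100a4, Cxcr5, Bcl6, Il21, Klf2, Ccr7, Igfbp4, Ikzf4, Lrrc32, Il2rb, Mki67 and H2afx.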

Additional observations from a re-analysis of the deposited data

How the results depend on the processing

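Over the 10 fits of all libraries or of the 6 alone, the calls between KO cTreg and WT eTreg ranged from 7110 (3866 higher and 3244 lower, length and GC offset) to 8903 (no filter on low counts), against 8753. Leaving out 1 library gave 8209 to 8490 calls, 8452 to 8705 for WT eTreg against WT cTreg and 2534 to 3303 for KO against WT cTreg. With the offset these contrasts had 7534 (3053 and 4481) and 3698 (1573 and 2125) calls. Requiring a 2-fold change left 2247, 2593 and 742 genes in the 3 contrasts. Genes within 1.5-fold numbered 4729, 4382 to 4494 without single libraries, 6654 with the offset, and 8321 with a 2-fold bound. The median position was 27.5% to 32.3% without single libraries for the effector-high genes, and 12.4% to 16.0% for the central-high genes, which moved to 27.9% with the offset. Named genes whose direction turned with the offset and that were called with or without it were Tbx21 (-0.24), Batf (-0.37), Slamf6 (0.38), Cd5 (-0.0164), Il2rb (-0.24), Bax (-0.0178) and Xiap (0.0447); the cause was not tested. Icos, Mcm6, Anxa5 and Jak1 also turned with the offset but were called neither as reported nor with it, and the uncalled differences of Cd3e and S1pr2 crossed 0 when single libraries were left out.

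The replicate numbers were not taken to pair the pools, as the labels name no shared litter, batch or day. Same-numbered KO cTreg and WT eTreg libraries deviated together with r = 0.139, 0.12 and -0.15. Differently numbered ones ranged from -0.229 to 0.164, so these values cannot settle whether pools were paired. The replicate block gave 8781 calls (8951 and 3410 in the other contrasts), 4749 genes within 1.5-fold, and called Icos, S100a4, Mki67 and Gpr183. Depth limits genes under about 1 CPM, such as Gzma, Gzmk, Ccr1 and Il23r.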
